A study of Mus musculus with 12 samples.

Results

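Epithelial junction and identity genes were examined for H3K27ac in 4T1 cells. The group held 10 genes of 22264 symbols in the table: Cdh1, Epcam, Cldn3, Cldn4, Cldn7, Tjp1, Esrp1, Ovol1, Grhl2 and Elf3. They were taken by name, as every interval whose nearest-gene name was 1 of these symbols, which gave 90 of 126464 intervals. Each interval was read on its own, and the scaled signal was also summed per gene.

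Epithelial cells hold together through adherens junctions, where E-cadherin (Cdh1) binds its like on the next cell, and through tight junctions, where claudins seal the gap and zonula occludens proteins such as ZO-1 (Tjp1) tie them to actin. Transcription factors such as grainyhead-like 2 (Grhl2), Ovol1 and Elf3, and the splicing factor Esrp1, hold cells in the epithelial state, while SNAIL, ZEB and TWIST factors repress many of these genes during the epithelial-to-mesenchymal transition (EMT). H3K27ac, acetylation of histone H3 at lysine 27, marks active promoters and enhancers, and its acetyl groups come from acetyl-CoA. 4T1 cells come from a mammary carcinoma of the mouse, spread to distant organs when implanted, and keep epithelial features.

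The study asked whether the supply of acetyl-CoA sets H3K27ac in such cells. All groups were wild-type 4T1 cells kept for 48 h in 6 media: vehicle, etomoxir, or etomoxir + SB204990, each with or without acetate. Acetate was given at 5 mM and both inhibitors at 50 µM, and each treatment had 2 libraries, 12 in all. Etomoxir blocks carnitine palmitoyltransferase 1, the step by which long-chain fatty acids enter mitochondria, and SB204990 blocks ATP citrate lyase, which makes acetyl-CoA from citrate. No group had SB204990 alone. The 2 libraries of a treatment carry different name suffixes that recur across treatments and are called set 1 and set 2 here. Nothing in the labels says whether they were separate cultures, so p-values measure the spread between these libraries, which may be technical.

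Values are reads in an interval multiplied by 1 factor per library, set by the authors from a human chromatin spike-in, and are called scaled signal. The libraries held 7179165 to 16676442 reads in intervals, and the factors ran from 0.398 to 1, with a factor of 1 in 1 library of each set. The factors may therefore lie on a separate scale in either set, which was not tested, and changes within set 1 and set 2 are given for the genes described in most detail. If so, comparisons of a set 1 library with a set 2 library mix the scales. The same holds for SDs over the 2 libraries and for the main fit, which has no term for set. The set 2 library of etomoxir + SB204990 stood apart, and it is the library of its set with a factor of 1. It had the fewest reads, it placed 2.77% of them in the intervals of the lowest quartile of signal against 0.990% to 1.41% in the others, and its correlations with the rest averaged 0.915, where the others averaged 0.949 to 0.958. Of 6 markers of mammary epithelium, 3 had intervals under their name (Krt8, Krt19 and Krt14), with a median percentile of 94.0 for vehicle signal per kb, while Krt18, Krt7 and Krt5 had none. The same percentile was 57.2 for 4 leukocyte markers with an interval, 61.0 for 3 endothelial ones, 24.97 for 5 fibroblast ones, 41.7 for 2 neuronal ones and 75.8 for the liver gene Apoa1. No interval carried the name of Tek, Alb, Myod1 or Myog. A gene without an interval under its name can still lie in one named for a neighbour. The lack of a name therefore does not show that Krt18, Krt7 or Krt5 was unmarked. Summed signal over the libraries ran from 3363 to 7723 for the mammary epithelium list, 426 to 1242 for leukocytes, 466 to 1294 for endothelium, 316 to 825 for fibroblasts, 99.97 to 254 for neurons and 748 to 2289 for liver, and the part of other cell types in the results was not tested. In a bulk sample, fewer cells with the mark and less mark per cell cannot be told apart.

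H3K27ac at these genes was concentrated in a few broad domains, most of them over start sites. Of the 90 intervals, 9 were 10 kb or longer and held 79.4% of the signal of the group, whereas over all intervals 4.21% were that long and held 54.7% of the signal. The adherens junction gene Cdh1 lay in the longest domain, 51395 bp (chr8:106600748-106652142, mm10), which covered both of its coding start sites and 99.8% of its signal, and only 248 intervals of the table were longer. Cldn4, a tight junction claudin that is a single-exon gene, lay wholly inside an interval of 39998 bp (chr5:134931533-134971530) with the highest mean of the group, 2816, at the 99.8th percentile of all intervals. Its neighbour Cldn3, another claudin, lay in the next broad interval of 18476 bp (chr5:134975698-134994173). Elf3, an ETS-family transcription factor of epithelia, lay in 1 interval of 28585 bp (chr1:135249879-135278463).

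The other genes had smaller or more scattered signal. Cldn7, a claudin also found along the lateral membrane, had a single interval of 10352 bp (chr11:69960048-69970399). Epcam, a homophilic adhesion molecule of epithelia, had 10 intervals, and 51.01% of its signal lay in an interval of 16223 bp upstream of the gene (chr17:87605951-87622173) against 41.4% in the 7354 bp over its start site (chr17:87634082-87641435). Esrp1, which directs epithelial splicing, had 7 intervals with 78.1% of the signal in 13255 bp over its start sites (chr4:11376481-11389735). Tjp1, the longest gene of the group at 231617 bp, had 39 intervals, the strongest being 8790 bp at chr7:65465361-65474150, inside the annotated gene and far upstream of the coding start sites. The interval over its coding start sites (chr7:65363677-65374261) held 24.6% of its signal. By the annotation of the authors, 62 of the 90 intervals lay in introns, 14 between genes, 8 at transcription ends, 3 in exons and 3 at promoters.

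**Figure D1:**
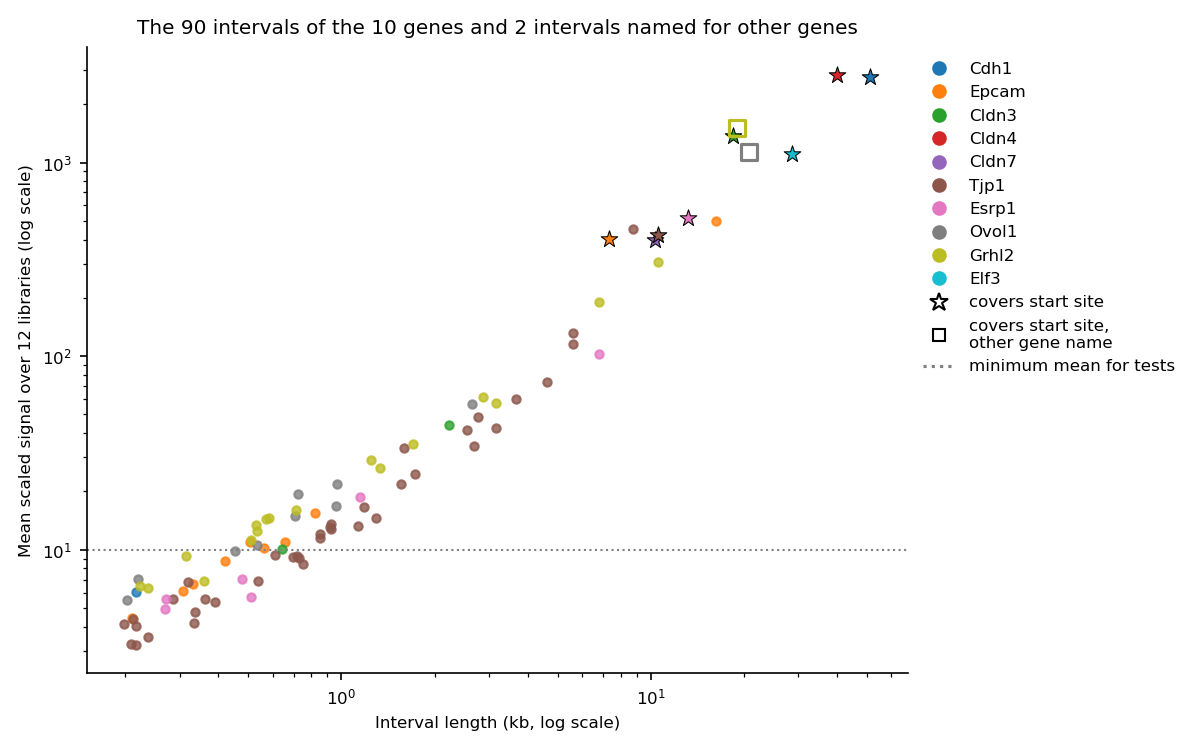
Length of each interval in kb (x axis, log scale) against its mean scaled signal over 12 libraries (y axis, log scale), 1 point per interval, coloured by gene. Stars cover a coding start site, open squares are the start-site intervals of Ovol1 and Grhl2 that carry the name of another gene, and the dotted line is the minimum mean of 10 for testing. The start-site domains of Cdh1 and Cldn4 lie at the top right, at means of 2765 and 2816.

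Naming by the nearest gene left out the strongest domains of the transcription factors Ovol1 and Grhl2. The interval over the start site of Grhl2 (chr15:37231540-37250512, 18973 bp, mean 1510) carries the name Gm16137, and that over the start site of Ovol1 (chr19:5553852-5574652, 20801 bp, mean 1133) carries the name Ap5b1. The 17 intervals named Grhl2 therefore lie further down the gene, and the 9 named Ovol1 lie beside its domain, the strongest of them at means of 305 (chr15:37261051-37271651) and 56.4 (chr19:5543205-5545851). Both start-site intervals are described apart from the sums below, and they were noticed after values had been seen. Of the 7 intervals over the Cdh1 gene, 6 carry the name of its neighbour Tango6, but their means add up to 262 against 2765 for the start-site domain.

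Promoter sequence was read for the genes in RefSeq's promoter table (GRCm38.p6, the same assembly as mm10), which had entries for 6 of the 10 genes, and Cdh1, Esrp1, Ovol1 and Grhl2 were not among them. The 250 bases before the start were searched on both strands for CACCTG, the E-box bound by SNAIL and ZEB repressors of epithelial genes (read as CAGGTG on the other strand), and for AACCNGTT, the grainyhead-like motif. CACCTG occurred in windows of Epcam, Cldn4, Cldn7 and Elf3, which is 4 of the 6 genes and 4 of 7 promoter entries, against 17.2% of 32851 promoter entries of that length. At Cldn7 the matches lay in an entry inside the gene (chr11:69965171-69965420), which overlaps its exons. The entry just before the Cldn7 gene (chr11:69964529-69964778) had 0. The Elf3 window also overlaps exons of Elf3. AACCNGTT occurred in none of the 7 entries, against 1.79% of all. The following upstream sequences of 2 adhesion genes with the E-box and 1 claudin gene without it are shown because these windows lie inside the start-site domains whose acetylation is described here. Capitals mark the E-box, and each run is 250 bases on the strand of the gene. The Epcam window is chr17:87635729-87635978 on the plus strand, with E-boxes starting 187 and 19 bases before the start. The Cldn4 window is chr5:134946935-134947184 on the minus strand, with an E-box starting 14 bases before the start. The Cldn3 window is chr5:134985964-134986213 on the plus strand.
Epcam: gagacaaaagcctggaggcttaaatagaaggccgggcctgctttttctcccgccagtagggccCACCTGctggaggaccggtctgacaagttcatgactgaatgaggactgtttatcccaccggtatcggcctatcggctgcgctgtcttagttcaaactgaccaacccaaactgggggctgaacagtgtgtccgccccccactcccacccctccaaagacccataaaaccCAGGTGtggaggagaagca
Cldn4: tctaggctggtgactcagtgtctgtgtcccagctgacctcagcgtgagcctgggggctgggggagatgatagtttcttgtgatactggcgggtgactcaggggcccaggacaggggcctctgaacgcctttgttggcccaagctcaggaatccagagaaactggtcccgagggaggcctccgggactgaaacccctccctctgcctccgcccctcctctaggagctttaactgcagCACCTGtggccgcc
Cldn3: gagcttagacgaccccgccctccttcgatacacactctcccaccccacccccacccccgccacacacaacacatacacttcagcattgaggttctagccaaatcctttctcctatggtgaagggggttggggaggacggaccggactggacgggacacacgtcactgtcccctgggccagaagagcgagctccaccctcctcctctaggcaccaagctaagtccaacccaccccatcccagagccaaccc

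Levels between genes can be compared only per length. With vehicle, the claudin genes Cldn4 and Cldn3 were the most densely marked, with 57.2 ± 2.18 (SD, n = 2) units of scaled signal per kb covered at Cldn4 and 56.9 ± 1.84 at Cldn3, both at the 98.6th percentile of all genes. Cdh1 followed at 43.5 ± 2.57 per kb (95.8th percentile). Cldn7 (30.8 ± 2.56), Elf3 (30.3 ± 3.99) and Epcam (27.7 ± 1.88) did not differ beyond their spread and lay between the 81.8th and the 86.3th percentile. Esrp1 stood at 22.8 ± 1.49 per kb. Grhl2 (19.1 ± 3.18), Tjp1 (19.04 ± 0.816) and Ovol1 (18.5 ± 6.23) were the lowest, between the 57.5th and the 59.9th percentile, with the start-site domains of Grhl2 and Ovol1 not counted.

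The adhesion genes were highest where acetate was added to etomoxir. Summed scaled signal at Cdh1, in set 1 and set 2 in turn, was 2149 and 2336 with vehicle, 3269 and 3104 with acetate, 2397 and 2254 with etomoxir, 4164 and 4055 with etomoxir + acetate, 1556 and 1873 with etomoxir + SB204990, and 2643 and 3454 with etomoxir + SB204990 + acetate. All 6 libraries with acetate lay above all 6 without it, the lowest at 2643 against the highest at 2397, as held for 8 of the 10 genes and 39.3% of all genes tested. Such statements compare libraries across the sets, whose scales may differ. For Epcam the values were 724 and 796 with vehicle, 1085 and 1017 with acetate, 899 and 789.7 with etomoxir, 1456 and 1345 with etomoxir + acetate, 638 and 723 with etomoxir + SB204990, and 1008 and 1215 with etomoxir + SB204990 + acetate. Its libraries with and without acetate did not overlap either (1008 against 899). Mean signal went up in the order etomoxir + SB204990, vehicle, etomoxir, etomoxir + SB204990 + acetate, acetate and etomoxir + acetate at Cdh1, and in this order vehicle and etomoxir overlapped, as did acetate and etomoxir + SB204990 + acetate. Epcam had the same order but for acetate and etomoxir + SB204990 + acetate, which changed places and overlapped. The total scaled signal over all intervals had its treatment means in the same order as Cdh1. Over the group, etomoxir + acetate had the highest mean at 10 of 10 genes, beside 93.9% of all genes, and etomoxir + SB204990 the lowest at 9, beside 70.8%.

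The claudins followed the same course at different heights. Cldn4 measured 2351 and 2228 with vehicle, 3746 and 3085 with acetate, 2376 and 2280.2 with etomoxir, 4132 and 3792 with etomoxir + acetate, 1644 and 1788 with etomoxir + SB204990, and 2751 and 3616 with etomoxir + SB204990 + acetate. Cldn3 measured 1243 and 1188 with vehicle, 1878 and 1553 with acetate, 1299 and 1178 with etomoxir, 2037 and 1957 with etomoxir + acetate, 869 and 888 with etomoxir + SB204990, and 1376 and 1723 with etomoxir + SB204990 + acetate. At both genes each library with acetate was above each library without it. The values at Cldn7 were 300.1 and 338 with vehicle, 435 and 418 with acetate, 351 and 329.8 with etomoxir, 621 and 563 with etomoxir + acetate, 248 and 296 with etomoxir + SB204990, and 346 and 538 with etomoxir + SB204990 + acetate. There the set 1 library of etomoxir + SB204990 + acetate, at 346, lay just under the set 1 library of etomoxir, at 351, so the libraries with and without acetate overlapped. All 3 claudins were lowest with etomoxir + SB204990 and highest with etomoxir + acetate, with a ratio of means of 2.31 at Cldn4, 2.27 at Cldn3 and 2.18 at Cldn7.

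Tjp1, the scaffold under the claudins, had the widest range of means, 2.49-fold. Its 39 intervals summed to 1299 and 1380.2 with vehicle, 2086 and 1953 with acetate, 1500.1 and 1373 with etomoxir, 2804 and 2525 with etomoxir + acetate, 892 and 1247 with etomoxir + SB204990, and 1589 and 1994 with etomoxir + SB204990 + acetate. The lowest library with acetate (1589) was above the highest without (1500.1). Esrp1, the splicing factor, had 543 and 495 with vehicle, 744 and 703 with acetate, 618 and 589.8 with etomoxir, 1007 and 838 with etomoxir + acetate, 439 and 490 with etomoxir + SB204990, and 622 and 819 with etomoxir + SB204990 + acetate. Here the lowest library with acetate (622) and the highest without (618) nearly met, and the ratio of the highest to the lowest mean, 1.99, was among the smallest of the group.

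Of the transcription factors, Elf3 kept the 6 libraries with acetate above the 6 without. Its values were 785 and 946 with vehicle, 1152 and 1202 with acetate, 997 and 874 with etomoxir, 1663 and 1645 with etomoxir + acetate, 665 and 898 with etomoxir + SB204990, and 1069 and 1388 with etomoxir + SB204990 + acetate. For Grhl2, by the intervals that carry its name, the signal was 545 and 690.1 with vehicle, 788 and 855 with acetate, 703 and 668 with etomoxir, 1387 and 1223 with etomoxir + acetate, 437 and 740 with etomoxir + SB204990, and 776 and 983 with etomoxir + SB204990 + acetate. The lowest library with acetate, 776, lay above the highest without, 740, which was the set 2 library of etomoxir + SB204990. Ovol1 had the weakest and most uneven signal, with 104 and 169.6 with vehicle, 142 and 183 with acetate, 132 and 114 with etomoxir, 250 and 229 with etomoxir + acetate, 70.5 and 182 with etomoxir + SB204990, and 166 and 208 with etomoxir + SB204990 + acetate. Its libraries overlapped across the sets, since vehicle and etomoxir + SB204990 in set 2 (169.6 and 182) exceeded acetate in set 1 (142), and the spread within etomoxir + SB204990 was the widest of all at 126 ± 78.8 (SD, n = 2). Ovol1 rested on 223 and 214 reads in the vehicle libraries, against 4597 and 2949 for Cdh1, and in the order of its means only etomoxir + acetate stood clear of its neighbour.

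**Figure D2:**
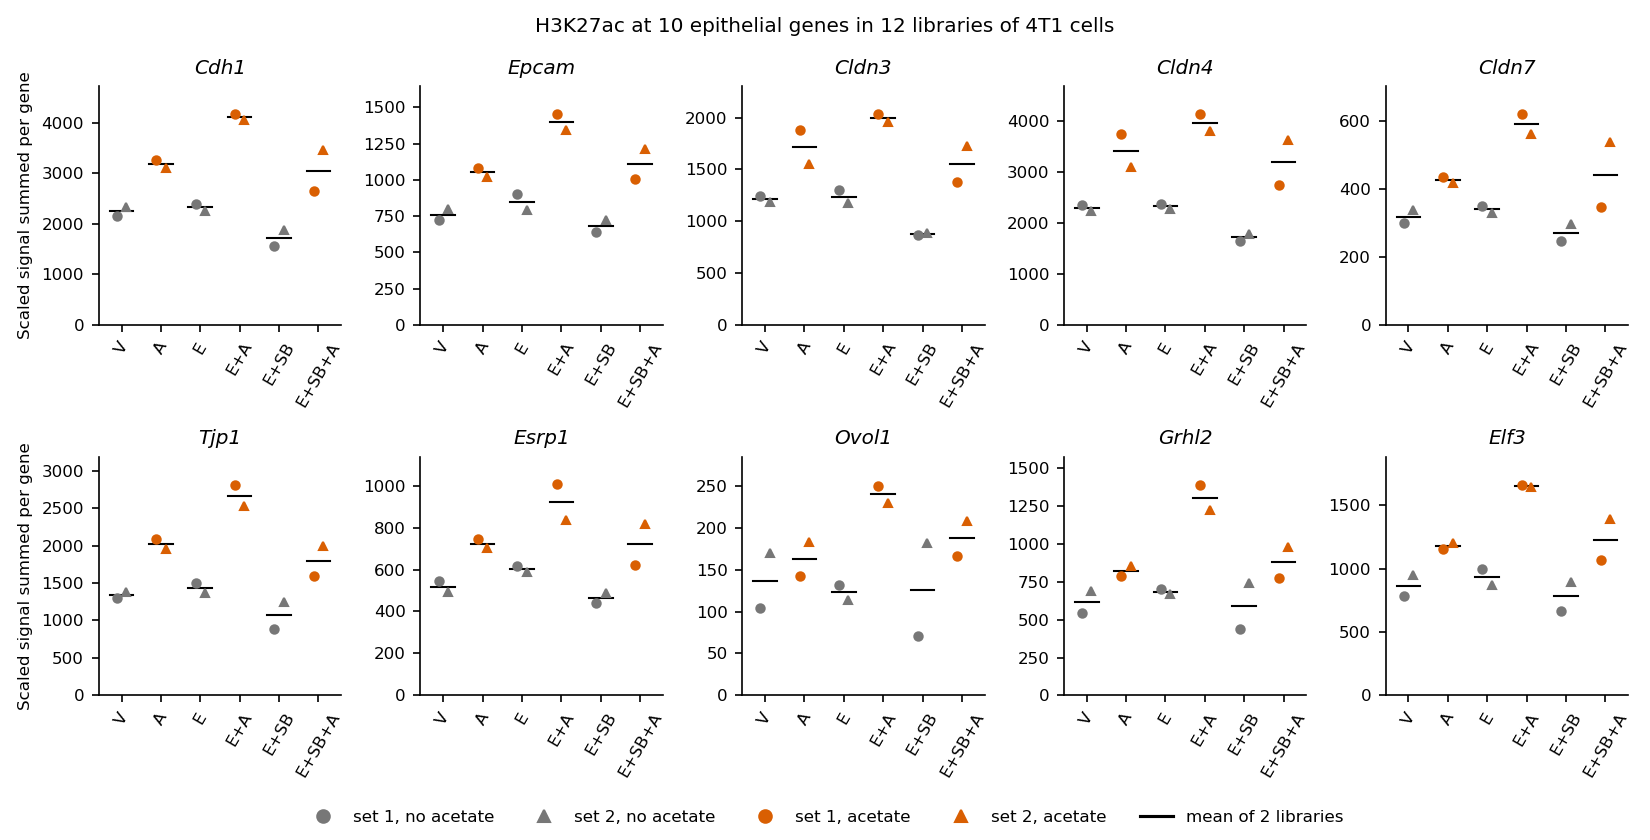
Scaled H3K27ac signal summed per gene (y axis, from 0) for the 10 genes in each treatment (x axis, V vehicle, A acetate, E etomoxir, SB SB204990). Circles are set 1 and triangles set 2, orange marks libraries with acetate, and bars are means of 2 libraries. Etomoxir + acetate has the highest mean at all 10 genes, from 239.7 at Ovol1 to 4109.6 at Cdh1.

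Acetate was compared with its absence on 3 inhibitor backgrounds: none, etomoxir, and etomoxir + SB204990. Within a set, the acetate library exceeded its partner in 6 of 6 pairs at every one of the 10 genes, beside 84.2% of all genes tested. The ratio ran from 1.38 to 2.02 times at Cldn4, from 1.33 to 1.84 times at Cdh1 and from 1.37 to 1.67 times at Esrp1, and Ovol1 had the widest range, 1.08 to 2.34 times. These ratios lean on the factor of each library, which moves all its intervals alike. An error in a factor is shared by all genes of that library, so the genes are not independent evidence for a shift. The limma fits borrow spread across genes as if these were independent, so their p-values may be too small. Genes at large moved in the same way, with a median log2 fold change over the 19458 genes tested of 0.48 for acetate against vehicle, 0.79 with etomoxir, 0.64 with etomoxir + SB204990 and 0.63 on average. A change at these genes is read against that shared shift, which a scaling that sets the typical gene to 0 takes away.

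With acetate alone, none of the 10 genes passed the test. All 10 had higher means, with log2 fold changes from 0.28 at Ovol1 to 0.59 at Tjp1. The count was 0 of 10 by limma with Benjamini-Hochberg adjustment, as for all genes (0%), while 7 genes of the group and 8341 of all genes had an unadjusted p under 0.05, and edgeR on the recovered reads also called 0. Cldn4 went from 2289.5 ± 87.1 to 3415 ± 467 (SD, n = 2), a log2 fold change of 0.57 ± 0.18 (SE), 0.67 in set 1 and 0.47 in set 2, with a limma adjusted p of 0.101. The median of the group was 0.47 against 0.48 for all genes, and 5 of the 10 genes lay above that median. With set 1 and set 2 entered as a block in the fit, 4 genes were called, and the share of all genes under that fit is not given here. The count of 0 also depended on libraries outside the comparison, which enter the estimate of spread. Fitted to its own 4 libraries alone, the comparison called 9 genes and 61.5% of all genes. In the same way 9 genes, all but Ovol1, were called without the set 1 or the set 2 library of etomoxir + SB204990 (61.1% and 61.2% of all genes), and 6 without either library of etomoxir + SB204990 + acetate (11.9%).

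With etomoxir present, acetate raised H3K27ac at all 10 genes, beside 78.2% of all genes tested. At Cdh1 the mean was 4109.6 ± 76.98 against 2326 ± 101 (SD, n = 2), a log2 fold change of 0.82 ± 0.18 (SE), 0.80 in set 1 and 0.85 in set 2, with a limma adjusted p of 0.00291. Ovol1 (0.96 ± 0.32) and Grhl2 (0.92 ± 0.22) had the largest changes and Esrp1 the smallest (0.61 ± 0.19), and the limma adjusted p ranged from 0.00291 to 0.0117. The median of the group, 0.81, lay next to that of all genes, 0.79. Under median-of-ratios scaling, which removes the shared shift, 0 of 10 genes were called in this comparison by limma (0 at an unadjusted p under 0.05), and Epcam (-0.057), Cldn3 (-0.098), Cldn4 (-0.023) and Esrp1 (-0.18) had log2 fold changes below 0. Without the set 1 library of etomoxir + acetate 7 genes were called (28.8% of all genes), with Cldn7, Esrp1 and Ovol1 lost, and without the set 2 library of etomoxir 8 were called (37.9%).

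With etomoxir + SB204990 present, acetate raised 9 of the 10 genes, beside 57.7% of all genes. Cldn4 had the largest change, from 1716 ± 102 to 3183 ± 612 (SD, n = 2), a log2 fold change of 0.88 ± 0.18 (SE), 0.74 in set 1 and 1.02 in set 2, with a limma adjusted p of 0.00653. Cdh1 (0.82 ± 0.18) and Cldn3 (0.81 ± 0.18) followed. Ovol1 was the gene not called, with 0.71 ± 0.32 and an adjusted p of 0.061 in limma, and its change was 1.23 in set 1 and 0.19 in set 2. The median was 0.71 against 0.64 for all genes. Relative to that shift Cldn4 stood 0.24 higher, at percentile 95.1 of all genes, but under median-of-ratios scaling it had a log2 fold change of 0.24 with a limma adjusted p of 0.984, and 0 of 10 genes were called (0 at an unadjusted p under 0.05), Esrp1 (-0.012) and Grhl2 (-0.016) lying below 0. The comparison rested on which libraries entered the fit. Fitted to its own 4 libraries alone, it gave 0 called genes in limma for the group and 0 for all genes, 2010 of which had an unadjusted p under 0.05. Without the set 2 library of etomoxir + SB204990 + acetate 0 genes were called, and without the set 1 library of etomoxir + SB204990 5 were (Cdh1, Epcam, Cldn3, Cldn4 and Esrp1), beside 0% and 23.3% of all genes. All 10 were called without the set 2 library of etomoxir + SB204990, which stood apart (91.4% of all genes), or without the set 1 or set 2 vehicle library, which is outside the comparison (55.9% and 56.3%).

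Averaged over the 3 backgrounds, acetate raised all 10 genes, beside 88.2% of all genes, and no single library changed a call. The log2 fold change was 0.75 ± 0.11 (SE) at Tjp1, 0.74 ± 0.10 at Cldn4 and 0.72 ± 0.10 at Cdh1. It was lowest at Esrp1 (0.57 ± 0.11) and 0.65 ± 0.19 at Ovol1, whose limma adjusted p of 0.00261 was the highest of the group. The 2 sets gave like values for Cldn4 (0.74 in set 1 and 0.74 in set 2) and Cdh1 (0.72 in set 1 and 0.71 in set 2) and unlike ones for Ovol1 (0.86 in set 1 and 0.44 in set 2) and Grhl2 (0.78 in set 1 and 0.53 in set 2). The median was 0.65 against 0.63 for all genes, and 8 of 10 genes lay above it. Under median-of-ratios scaling the average ran from -0.067 at Esrp1 to 0.11 at Tjp1, with Epcam (-0.0016), Cldn7 (-0.0072) and Esrp1 below 0, and 0 of 10 genes were called by limma (0 at an unadjusted p under 0.05). Under total-sum scaling, where only Esrp1 was below 0, the count was also 0 (2 at an unadjusted p under 0.05). With reads taken as a share of the library and then multiplied by the factor, all 10 averages were above 0, from 0.36 to 0.54, and 0 genes were called by limma (0 at an unadjusted p under 0.05), as also on each background. That scaling divides by depth and keeps the factor, and the libraries of etomoxir + SB204990 had factors of 0.398 and 1 at 13441958 and 7179165 reads. The paper set the factors from the spike-in percentage, and whether they already correct for depth was not tested.

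The dependence of the acetate change on the inhibitors was tested as an interaction. For etomoxir the interaction was above 0 at all 10 genes, from 0.13 at Esrp1 to 0.68 at Ovol1 on the log2 scale, with a median of 0.31 against 0.30 for all genes. By limma 0 of 10 genes and 0% of all genes were called, 0 of the group had an unadjusted p under 0.05, and edgeR called 0. For etomoxir + SB204990 the median was 0.24 against 0.16, and again 0 genes (0% of all) were called by limma, 0 at an unadjusted p under 0.05 and 0 by edgeR. The 95% confidence interval for Cdh1 was -0.20 to 0.82 for the former and -0.19 to 0.83 for the latter.

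**Figure D3:**
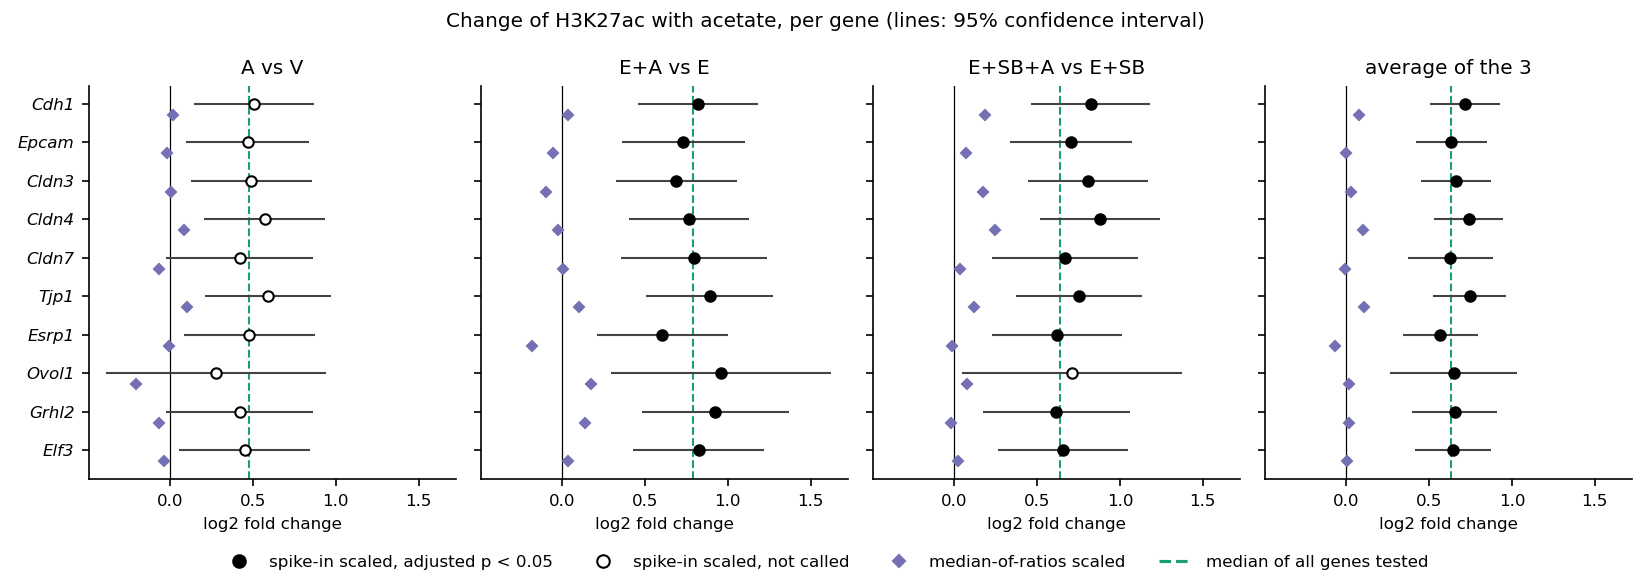
Log2 fold change with acetate (x axis) for each gene (y axis) on the 3 backgrounds and on average. Circles with 95% confidence intervals are spike-in scaled values, filled where limma's adjusted p was under 0.05, diamonds are values after median-of-ratios scaling, and the dashed line is the median of all genes tested. On average the circles lie from 0.57 to 0.75, around the median of 0.63, and the diamonds from -0.067 to 0.11.

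Among single intervals, 56 of the 90 had a mean of at least 10 and were tested, and 34 did not and were not. Averaged over backgrounds, 45 of 56 were called, all higher, beside 77.2% of all intervals. They included the start-site domains of Cdh1 (0.72 ± 0.10, SE), Cldn3 (0.65 ± 0.10), Epcam (0.65 ± 0.11) and Tjp1 (0.68 ± 0.11), and the distal intervals of Epcam (0.60 ± 0.11) and Tjp1 (0.69 ± 0.11) had changes within 1 SE of those at the start sites. Under median-of-ratios, total-sum and share-times-factor scaling 0 of 56 intervals were called by limma in any comparison, and after median-of-ratios scaling the average was 0.073 at the Cdh1 domain, -0.040 at the distal Epcam interval and -0.12 at the Esrp1 domain. With etomoxir, 33 of 56 were called beside 56.4% of all intervals, and with etomoxir + SB204990, 15 beside 27.4%. The latter count was 0 without the intensity trend and 0 when only the libraries compared were fitted. With acetate alone, 0 of 56 were called by limma against 0.0955% of all, with 20 at an unadjusted p under 0.05 and 0 by edgeR. The largest called change with etomoxir was at a weak interval of Ovol1 (chr19:5550840-5551803, mean 21.8) with a log2 fold change of 1.77 ± 0.46 (SE), 1.19 in set 1 and 2.36 in set 2. With etomoxir + SB204990 it was at an intronic interval of Tjp1 (chr7:65407439-65413065, mean 131), 1.05 ± 0.25, and on average at a weak one of Tjp1 (chr7:65361966-65362891, mean 12.8), 1.05 ± 0.31. Interval counts moved with single libraries. Among the libraries compared, the etomoxir count fell to between 5 and 21 when any 1 was left out, 5 being the count without set 1 of etomoxir + acetate (8.05% of all intervals), 9 without set 2 of etomoxir (10.5%), 20 without its set 1 (25%) and 21 without set 2 of etomoxir + acetate (27%). The count with etomoxir + SB204990 was 39 without its set 2 library (71.6% of all intervals), 8 without its set 1 library (9%) and 6 without set 2 of etomoxir + SB204990 + acetate (3.31%). With acetate alone it was 18 without the set 1 or set 2 library of etomoxir + SB204990 (21% and 21.2%) and 8 without either library of etomoxir + SB204990 + acetate (8.98% and 8.99%).

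With etomoxir alone no gene of the group passed the test. Means were higher at 9 of 10 genes and lower at Ovol1, with log2 fold changes from -0.12 at Ovol1 to 0.22 at Esrp1, and Cdh1 was 2326 ± 101 against 2243 ± 133 (SD, n = 2), a change of 0.053 ± 0.18 (SE) with a 95% confidence interval of -0.31 to 0.41. By limma 0 of 10 genes were called against 0.0154% of all genes, with 0 at an unadjusted p under 0.05 and 0 by edgeR. The sets differed in sign at 8 genes, as at Elf3 (0.35 in set 1 and -0.11 in set 2). The median was 0.10 against 0.14 for all genes. The direction depended on the scaling, with 7 of 10 values below 0 under median-of-ratios and under total-sum scaling. If reads were first taken as a share of the library and then multiplied by the factor, all 10 lay below 0, as did the median of all genes (-0.079).

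Etomoxir + SB204990 gave lower means than vehicle at all 10 genes, but 0 of 10 passed the limma test, against 0.00514% of all genes, with 3 at an unadjusted p under 0.05 and 0 called by edgeR. Those 3 were Cldn3, at 879 ± 13.1 against 1216 ± 39.4 (SD, n = 2), a log2 change of -0.47 ± 0.18 (SE), -0.52 in set 1 and -0.42 in set 2, then Cldn4 (-0.42 ± 0.18, -0.52 in set 1 and -0.32 in set 2) and Cdh1 (-0.39 ± 0.18, -0.47 in set 1 and -0.32 in set 2). Their limma adjusted p was 0.777 each. Both libraries lay below both vehicle libraries at 7 of the 10 genes, these 3 and Epcam, Cldn7, Tjp1 and Esrp1, beside 25.5% of all genes. Grhl2 (-0.11) and Ovol1 (-0.23) were lower than vehicle in set 1 and higher in set 2, where the library with the raised share of weak intervals lies, and its part in this was not tested. The median was -0.23 against -0.18 for all genes. Without that set 2 library, Tjp1 (-0.59, limma adjusted p 0.0456) and Ovol1 (-0.91, limma adjusted p 0.0167) were called, beside 12.3% of all genes. The direction depended on the scaling, with 4 of 10 values above 0 under median-of-ratios and under total-sum scaling and 6 with reads taken as a share and multiplied by the factor.

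Against etomoxir alone, adding SB204990 gave log2 fold changes below 0 at all 10 genes, from -0.49 at Cldn3 to -0.11 at Ovol1 with a median of -0.35 against -0.33 for all genes. At Ovol1 the mean itself was not lower (126 ± 78.8 against 123 ± 12.8, SD, n = 2), and Ovol1, Grhl2 and Elf3 were lower in set 1 and higher in set 2. By limma 0 of 10 and 0% of all genes were called, 4 of the group (Cdh1, Cldn3, Cldn4 and Tjp1) and 4087 of all genes had an unadjusted p under 0.05, and edgeR called 0. Tjp1 was 1069.6 ± 251 against 1436 ± 90.2 (SD, n = 2), a change of -0.44 ± 0.19 (SE), -0.75 in set 1 and -0.14 in set 2. Without the set 2 library of etomoxir + SB204990, 8 genes were called, all but Epcam and Cldn7, beside 63.8% of all genes, with Tjp1 at -0.69 and a limma adjusted p of 0.0102. The direction depended on the scaling, with 3 of 10 values above 0 under median-of-ratios scaling, 5 under total-sum scaling and all 10 with reads taken as a share and multiplied by the factor, where the median of all genes was 0.16. None was called under these 3 scalings by limma. At the interval level, limma called 0 of 56 intervals for etomoxir against vehicle (0.0626% of all, 0 at an unadjusted p under 0.05), 0 for etomoxir + SB204990 against vehicle (0.0532%, 4) and 0 for etomoxir + SB204990 against etomoxir (0.0469%, 8), and edgeR called 0 in each. Without the set 2 library of etomoxir + SB204990 the last 2 counts became 3 and 12 (3.95% and 25.1% of all intervals), and without the set 1 library of etomoxir + SB204990 + acetate 1 and 4 (0.537% and 4.19%), as without its set 2 library (0.532% and 4.17%).

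**Figure D4:**
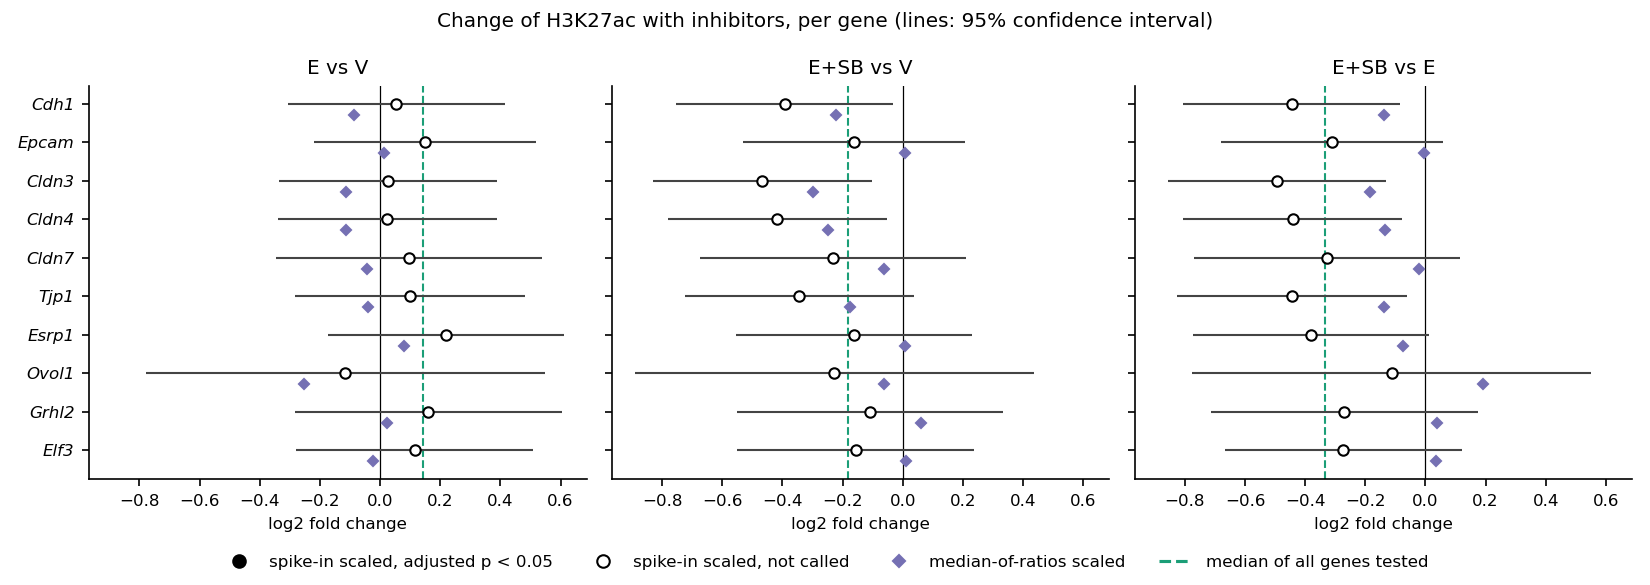
Log2 fold change with inhibitors (x axis) for each gene (y axis), drawn as in the plot of acetate changes. All circles are open, since limma called 0 of the 10 genes. The claudins Cldn3 and Cldn4 and Cdh1 lie farthest below 0 with etomoxir + SB204990 against vehicle, at -0.47, -0.42 and -0.39.

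The start-site domains of Ovol1 and Grhl2 carried more signal than the intervals named for these genes, by a wider margin at Ovol1 than at Grhl2. The average acetate change differed less between the sets there. The domain over the Ovol1 start site measured 829 and 999 with vehicle, 1294 and 1241 with acetate, 966 and 947 with etomoxir, 1627 and 1490.0 with etomoxir + acetate, 742 and 859 with etomoxir + SB204990, and 1100.2 and 1500.4 with etomoxir + SB204990 + acetate. It held several times the signal of the 9 intervals named Ovol1, and the libraries with acetate (lowest 1100.2) did not overlap with those without (highest 999). Over the Grhl2 start site the values were 1298 and 1215 with vehicle, 1739.7 and 1462 with acetate, 1441 and 1488 with etomoxir, 2122 and 2010.3 with etomoxir + acetate, 1051 and 995 with etomoxir + SB204990, and 1473 and 1829 with etomoxir + SB204990 + acetate. Here the libraries overlapped, since acetate in set 2 (1462) lay below etomoxir in set 2 (1488). Averaged over backgrounds, acetate raised both, by 0.62 ± 0.10 (SE) at Ovol1 (limma adjusted p 2.19e-08) and 0.51 ± 0.10 at Grhl2 (limma adjusted p 2.95e-06), with 0.65 and 0.59 in the sets for Ovol1 and 0.49 and 0.53 for Grhl2. Neither was called under median-of-ratios or total-sum scaling, where the values lay below 0, at -0.022 and -0.0041 for Ovol1 and -0.14 and -0.12 for Grhl2. With etomoxir + SB204990 present, the Ovol1 domain passed the test (0.69 ± 0.18, limma adjusted p 0.00182), unlike the sum of the intervals with its name. With these domains counted to their genes, 10 in place of 9 genes were called in that comparison and the counts in the other comparisons were as before. The Grhl2 sum then changed on average by 0.55 in place of 0.65, and the Ovol1 sum by 0.62 in place of 0.65.

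**Figure D5:**
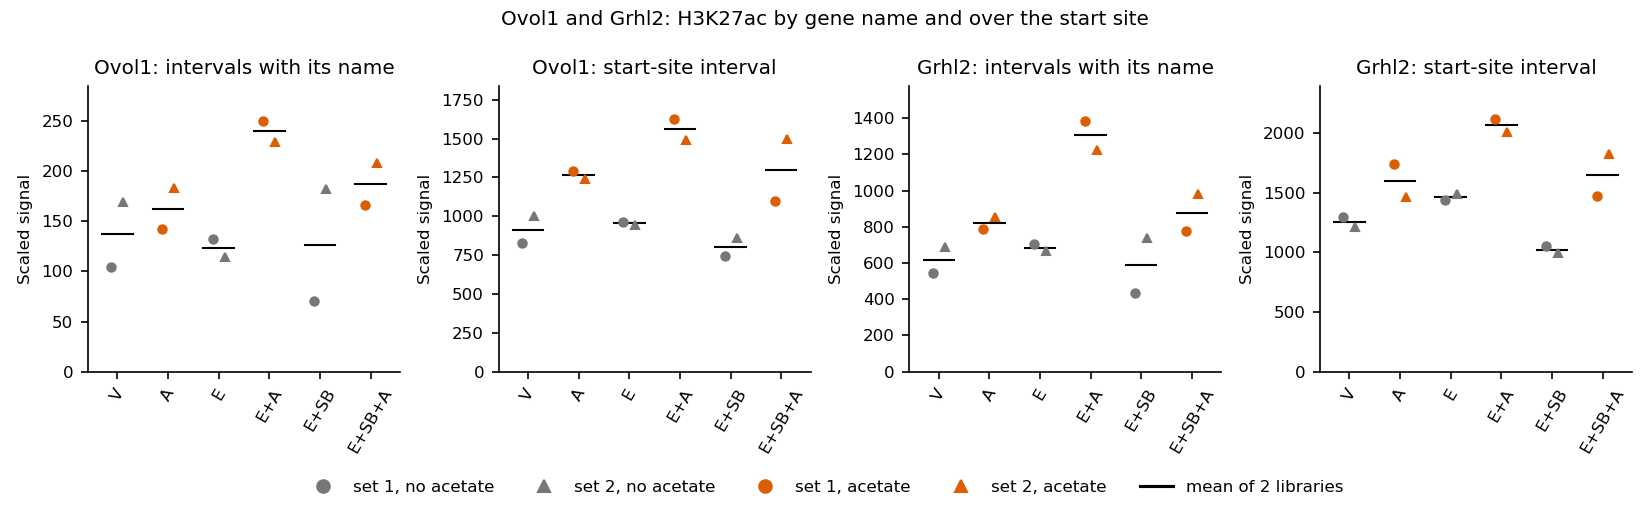
Scaled H3K27ac signal (y axis, from 0) at Ovol1 and Grhl2 in each treatment (x axis, letters and symbols as in the plot of levels by treatment), by the intervals that carry the gene's name and by the interval over its start site. The named intervals of Ovol1 reach 250 at most and its start-site interval 1627, and for etomoxir + SB204990 the ratio of set 2 to set 1 is wider at the named intervals (182 against 70.5 at Ovol1) than at the start site (859 against 742).

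Other genes of epithelial junctions and identity were taken as a list of 56, of which 49 had an interval and were tested. On average over backgrounds acetate raised 49 of 49, beside 88.2% of all genes, with a median of 0.68 against 0.65 for the 10 genes and 0.63 for all genes, and 35 of the 49 lay above the median of all genes. Highest were Muc1, a membrane mucin (0.89 ± 0.13, SE), Nectin4, an adherens junction adhesion molecule (0.89 ± 0.12), and Grhl1, a relative of Grhl2 (0.88 ± 0.24). Lowest were Gata3, the luminal transcription factor (0.47 ± 0.12), Marveld2, the tricellular tight junction protein (0.53 ± 0.14), and Cd24a, a surface glycoprotein of epithelia (0.55 ± 0.11). With etomoxir 45 of 49 were called (78.2% of all genes), with etomoxir + SB204990 43 (57.7%), and with acetate alone 0 by limma (37 at an unadjusted p under 0.05) and 0 by edgeR. Under median-of-ratios scaling 0 of 49 were called by limma on average (7 at an unadjusted p under 0.05), and 34 lay above 0. Among the inhibitor comparisons limma called 0 of 49 in each, with 0, 2 and 16 at an unadjusted p under 0.05 for etomoxir against vehicle, etomoxir + SB204990 against vehicle and etomoxir + SB204990 against etomoxir, and edgeR called 0 in each.

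Genes of the mesenchymal state and the factors that drive EMT were set beside them. Of 10 listed, 8 had an interval, and Zeb2 and Twist2 had none under their names. The intermediate filament gene Vim was densely marked with vehicle, 37.8 ± 0.232 (SD, n = 2) per kb (92.9th percentile), above Epcam and below Cdh1. Twist1 stood at 29.8 ± 2.88, fibronectin (Fn1) at 25.4 ± 2.23, Prrx1 at 20.96 ± 4.19, Snai1 at 16.8 ± 12.4 and Snai2 at 12.9 ± 1.22 per kb. Zeb1 (8.74 ± 1.51) and N-cadherin, Cdh2 (4.31 ± 3.89, 2.84th percentile), were at the low end, and Cdh2 was too low to be tested. On average acetate raised 6 of the 7 tested, beside 88.2% of all genes, from Vim (0.42 ± 0.12, SE) to Snai1 (1.04 ± 0.30), all but Zeb1 (0.13 ± 0.33), with a median of 0.55 against 0.65 for the 10 epithelial genes. Limma called 4 of 7 with etomoxir (78.2% of all genes), 5 with etomoxir + SB204990 (57.7%) and 0 with acetate alone (3 at an unadjusted p under 0.05, and 0 by edgeR). Snai1 rested on 19 and 36 reads in the vehicle libraries. The difference between the lists was not tested, and under median-of-ratios scaling the values of Vim (-0.21), Twist1 (-0.096), Snai2 (-0.069), Fn1 (-0.012) and Zeb1 (-0.46) lay below 0.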

How the data were processed

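H3K27ac ChIP-seq was made by the authors from micrococcal nuclease-digested chromatin of 12 libraries with 7.5% human chromatin added, mapped to a merged human and mouse (mm10) genome with nf-core/chipseq 1.2.2, with deepTools 3.5.1 also named in the submitters' processing notes. The deposited signal is the read count per interval multiplied by a spike-in factor, and for the 2 libraries with a factor of 1 the deposited values are the read counts themselves. How the intervals were called is not given in the sources used here. Division by the factor gave whole reads for 100% of values (tolerance 0.05). Signal was summed per gene name, features with a mean under 10 were left out, and log2(signal + 1) was fitted with limma 3.58.1 (R 4.3.3, intensity trend, 6 group means over 12 libraries), with Benjamini-Hochberg adjustment over all features and a threshold of 0.05, after a test on simulated data. Fold changes on that scale understate those of low features. The simulated reads were independent between genes, with exact factors and no shift shared by all genes. That test therefore says nothing on errors in the factors. Alternatives were edgeR 4.0.16 on the recovered reads, 3 other scalings (median-of-ratios, total-sum, share of reads times factor), other minimums and pseudocounts, no trend, a replicate block, fewer libraries and each library left out. Genes were placed with GENCODE M21. All 10 genes are reported in every comparison, with the intervals of highest mean, those over start sites and the called interval of largest change. The genes and lists were chosen with earlier results of these data known.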

Additional observations from a re-analysis of the deposited data

How the results depend on the processing

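Of the alternative values, 1783 kept their direction and side of the threshold, 99 lost and 59 gained a call, 103 moved and 16 reversed. Scaling decided the calls. Under median-of-ratios, total-sum and share-times-factor scaling 0 genes and 0 intervals were called in every comparison, where the spike-in scale gave 10, 9 and 10 genes and 33, 15 and 45 intervals for acetate with etomoxir, with etomoxir + SB204990 and on average. Under median-of-ratios scaling, reversed values with etomoxir were -0.057 at Epcam, -0.098 at Cldn3, -0.023 at Cldn4 and -0.18 at Esrp1, with etomoxir + SB204990 -0.012 at Esrp1 and -0.016 at Grhl2, and on average -0.0016 at Epcam, -0.0072 at Cldn7 and -0.067 at Esrp1. Under total-sum scaling they were -0.011 at Epcam, -0.052 at Cldn3 and -0.14 at Esrp1, then -0.043 at Esrp1, -0.048 at Grhl2 and -0.0088 at Elf3, and on average -0.057 at Esrp1. Median-of-ratios and total-sum scaling remove a shift shared by all genes by construction. Share-times-factor scaling does not, and the cause of its lost calls was not tested.

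Fits to only the libraries compared called 9 genes and 16 intervals for acetate against vehicle, 46 intervals with etomoxir, 0 genes and 0 intervals with etomoxir + SB204990, and 3 intervals for etomoxir + SB204990 against etomoxir, and the cause was not tested. A minimum mean of 50 left fewer intervals and called 10 for acetate against vehicle, 20 with etomoxir and 20 on average. Without the intensity trend 0 intervals were called with etomoxir + SB204990. With a replicate block, 4 genes and 2 intervals were called for acetate against vehicle and 10 genes with etomoxir + SB204990. Except where given above, the shares of all features called under these settings are not set beside these counts. Such counts are not read as particular to the group. The set 1 minus set 2 differences of all genes tested correlated from -0.22 to 0.60 over 15 pairs of groups, over 0.1 in 4. They correlated at 0.56 between vehicle and acetate. Etomoxir + SB204990 correlated at 0.60 with vehicle and at 0.59 with acetate. The main fit did not pair the sets, although pairing may hold among these groups, and the block changed the count for acetate against vehicle. Leaving out 1 library at a time gave 0 to 9 genes (0 to 18 intervals) for acetate against vehicle, 7 to 10 (5 to 45) with etomoxir, 0 to 10 (6 to 39) with etomoxir + SB204990, 10 (33 to 53) on average, 0 (0) for etomoxir, 0 to 2 (0 to 3) for etomoxir + SB204990 against vehicle and 0 to 8 (0 to 12) against etomoxir. A lone library was then assumed to vary like the other groups. Adding the start-site intervals of Ovol1 and Grhl2, an alternative chosen after seeing the data, gave 10 genes with etomoxir + SB204990. Depth was lowest for Ovol1, with 223 and 214 reads in the vehicle libraries.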
